A study of Mus musculus with 503 samples.

Results

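The 10 genes described here encode the parts of elastic fibres and of the microfibrils that carry them: elastin (Eln), the fibrillins Fbn1 and Fbn2, the fibulins Fbln1, Fbln2 and Fbln5, the microfibril-associated proteins Mfap4 and Mfap5, the latent TGF-beta binding protein Ltbp2 and the elastin microfibril interfacer Emilin1. They were taken by their symbols from a single-cell count table with 56701 gene rows, of which 34460 had a count in the cells kept. All 10 had one row each and all 10 passed the limit of a mean of 10 CPM (counts per 1000000 counts) over the groups, which 10595 genes passed. In uninjured spinal cord, 9 of the 10 genes, all but Emilin1, had most of the counts of the tdTomato+EGFP+ population in 26 perivascular fibroblast-like cells. For Ltbp2, Fbn2 and Eln a single cell each held 68.04%, 50.3% and 47.7% of the counts of that population. At 3 days after a crush injury the genes divided. Fbn1, Fbn2, Fbln2, Ltbp2 and Emilin1 were more than 2-fold higher than in uninjured cord in the tdTomato+EGFP+ cells. Of these, Fbln2, Ltbp2 and Emilin1 were also more than 2-fold higher in the tdTomato-EGFP+ cells. Eln, the core of the fibre, differed from the uninjured level by -1.67 on the log2 scale in the tdTomato+EGFP+ cells and by 3.09 in the tdTomato-EGFP+ cells.

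The cells came from adult GLAST-CreERT2;R26R-tdTomato;Pdgfrb-eGFP mice, in which EGFP reports the Pdgfrb promoter and a tamoxifen-dependent Cre under GLAST (Slc1a3) control switches on tdTomato in the cell and its descendants. All 4 groups share these 3 transgenes, and the sort divided EGFP+ cells into tdTomato+EGFP+ and tdTomato-EGFP+ cells from uninjured cord and from cord 3 days after a complete crush (3d_SCI). They are called tdTomato+ and tdTomato- cells below. The tdTomato label records recombination and not present Slc1a3 expression, astrocytes also use the GLAST promoter, and EGFP is shared by pericytes, fibroblasts and vascular smooth muscle cells. The outer meninges had been removed before dissociation. Each deposited sample is 1 cell and none is tied to an animal, so each group was 1 sample of summed counts. No p-value was computed for that reason, and the intervals given are 95% exact Poisson or exact binomial intervals that cover counting error only.

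Elastic fibres have an amorphous core of crosslinked elastin on a scaffold of fibrillin microfibrils. Fibrillins polymerise into the microfibrils, MFAPs and LTBPs decorate them, and fibulins and EMILIN-1 sit at the interface with elastin and help to deposit it. Lysyl oxidases crosslink the elastin. Microfibrils also store latent TGF-beta and BMP complexes, and in the central nervous system these fibres belong mainly to vessel walls and to the fibroblasts around larger vessels.

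In the GENCODE annotation of GRCm38, the build matching mm10 of the submitters' processing notes, Eln lies at chr5:134702593-134747323 on the minus strand and Emilin1 at chr5:30913402-30921277 on the plus strand. Fbn1 lies at chr2:125300594-125507993 on the minus strand. Fbln1 lies at chr15:85205949-85286535, Fbln2 at chr6:91212455-91272540 and Mfap5 at chr6:122505845-122529290, all on the plus strand. Mfap4 lies at chr11:61485431-61488900 on the plus strand, and Fbln5 (chr12:101746565-101819055) and Ltbp2 (chr12:84783212-84876532) lie on the minus strand. Eln, Fbn1, Fbn2, Mfap4 and Ltbp2 each overlap 1 gene on the opposite strand (Gm30003, Gm9913, Gm26507, Mapk7 and D030025P21Rik), and whether the counting used strand is not given in the sources used here, so reads of the partners cannot be told apart from theirs.

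RefSeq promoter windows (GRCm38.p6) matched 6 of the 10 genes with 8 entries. The 250 bases upstream of a start of Fbln5 and of Fbln1 are shown as examples for a pair of fibulins with unlike levels after injury. Capitals mark the GC box GGGCGG or its reverse complement, searched on both strands. The Fbln5 bases are chr12:101819120-101819369 on the minus strand and the Fbln1 bases are chr15:85205699-85205948 on the plus strand.
Fbln5: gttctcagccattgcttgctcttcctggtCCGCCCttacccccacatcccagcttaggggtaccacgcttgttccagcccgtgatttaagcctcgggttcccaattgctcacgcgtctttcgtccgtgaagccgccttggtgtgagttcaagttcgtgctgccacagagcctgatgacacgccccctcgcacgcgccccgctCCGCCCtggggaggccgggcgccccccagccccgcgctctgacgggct
Fbln1: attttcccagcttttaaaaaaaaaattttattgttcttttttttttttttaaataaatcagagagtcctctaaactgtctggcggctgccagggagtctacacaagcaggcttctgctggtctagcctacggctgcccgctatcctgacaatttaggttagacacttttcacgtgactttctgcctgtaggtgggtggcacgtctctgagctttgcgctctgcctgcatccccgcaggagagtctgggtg
The Fbln5 stretch holds 2 GC boxes at 65.2% GC, and the Fbln1 stretch holds none of the motifs searched at 46.4% GC. A second start of Fbln5 has none in its upstream bases at 49.4% GC, and a Fbln1 window holds a GC box that is not within the printed bases, so the motif does not separate the genes. Over the whole windows, a GC box was found in 5 of the 8 entries of these genes and in 32.7% of 32851 mouse promoter windows. None of the 8 held a TATA box (TATAAA, 12.4% of all windows), an AP-1 site (TGANTCA, 6.75%), a palindromic SMAD box (GTCTAGAC, 0.167%) or a TEAD site (GGAATG, 12.6%). A match of letters is a description of the sequence and not a measured site.

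Of 503 cells, 468 were kept. Of these, 29.27% were uninjured tdTomato+, 22.65% uninjured tdTomato-, 26.07% 3d_SCI tdTomato+ and 22.01% 3d_SCI tdTomato- cells, with 25645409 to 38406035 summed counts per group and median counts per cell of 204006 to 271660. Plates 209 and 213 held the uninjured cells and plates 211 and 215 the injured ones, so injury and plate cannot be told apart. The 34 tdTomato+ cells of plate 215 were shallow, with a median of 14770 counts. Slc1a3 went with the sort, at 212 and 31.5 CPM in uninjured tdTomato+ and tdTomato- cells and 207 and 10.7 CPM at 3 days. Markers of other cells differed between the groups, and no gene of the 3 lists that follow was at 0 in any group. The summed level of 5 endothelial markers was 3635 and 3947 CPM in the uninjured groups, with 345 and 1423 CPM at 3 days. That of 8 perivascular fibroblast markers was 4139 and 2139 CPM before and 21781 and 9430 CPM after injury, and that of 9 pericyte markers was 797 CPM in 3d_SCI tdTomato+ cells and 11378 to 12552 CPM elsewhere. Their part in the differences below was not tested, and in summed counts more cells of a type and more RNA per cell cannot be told apart.

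Elastin itself, the monomer of the fibre core, had plate values that overlapped between the sorts before injury and lay far apart at 3 days. In uninjured tdTomato+ cells Eln was at 23.9 CPM (95% interval 22.4 to 25.5), with 18.1 on plate 209 and 28.1 on plate 213. One cell held 47.7% of these counts, and the level was 12.6 CPM without it. In uninjured tdTomato- cells it was at 26.9 CPM, with 18.4 and 30.96 on the same plates, and at 18.3 CPM without the top cell. In 3d_SCI tdTomato+ cells Eln was at 6.84 CPM (5.95 to 7.82), with 7.03 on plate 211 and 3.58 on plate 215. In 3d_SCI tdTomato- cells it was at 237 CPM (231 to 243), with 419 on plate 211 and 71.8 on plate 215. Both injured tdTomato- plates were above every other plate and both injured tdTomato+ plates were below, with no overlap. Few cells carried the signal. One cell held 36.1% of the Eln counts of 3d_SCI tdTomato- cells, and without it the level was 153.4 CPM. After each cell was thinned to 20000 counts, Eln was found in 19 of these cells (18.6%, interval 11.6 to 27.6) and in 7 of 100 3d_SCI tdTomato+ cells (7.0%, 2.86 to 13.9).

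The fibrillins, the polymers of the microfibril, were highest in 3d_SCI tdTomato+ cells. Fbn1 was at 72.96 CPM in uninjured tdTomato+ cells, with plate values of 69.9 and 75.2. It was at 135.8 CPM in uninjured tdTomato- cells (107 and 149.5), at 568 CPM in 3d_SCI tdTomato+ cells (568 on both plates) and at 225 CPM in 3d_SCI tdTomato- cells (217 and 233). None of the 4 groups overlapped another across plates. The uninjured tdTomato- level rested on 1 cell with 70.7% of its counts, and was 40.8 CPM without it, below the other sort. Thinned cells with Fbn1 were 18.9%, 11.96%, 94% and 39.2% of the groups in this order. Fbn2, the fibrillin best known from development and encoded on the minus strand of chromosome 18, was at 12.1 CPM in uninjured tdTomato+ cells (15.4 and 9.72 by plate) and 2.12 CPM in uninjured tdTomato- cells (0.347 and 2.96). It was at 38.7 CPM in 3d_SCI tdTomato+ cells (38.7 and 37.6) and 2.73 CPM in 3d_SCI tdTomato- cells (2.71 and 2.75). The tdTomato+ plates lay above the tdTomato- plates in both states. Of the 57 Fbn2 counts in uninjured tdTomato- cells, 89.5% came from 1 cell. In uninjured tdTomato+ cells 1 cell held 50.3%, and the level was 6.08 CPM without it.

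The fibulins, glycoproteins that link elastin, fibrillins and basement membranes, did not share one pattern. Fbln1 was at 167 CPM in uninjured tdTomato+ cells (173 and 163 by plate), 134.2 CPM in uninjured tdTomato- cells (178 and 113.5), 285 CPM in 3d_SCI tdTomato+ cells (277 and 420) and 226 CPM in 3d_SCI tdTomato- cells (171 and 275). Only the injured tdTomato+ plates lay above all the others. Fbln2 was at 315 CPM (419 and 239), 131.3 CPM (175 and 110), 755 CPM (735 and 1106) and 275 CPM (280 and 271) in the same order. Its tdTomato+ plates lay above the tdTomato- plates in each state. Fbln5, which binds elastin and integrins and is needed to lay elastin onto microfibrils, was at 90.8 CPM (91.1 and 90.7), 52.1 CPM (40.99 and 57.4), 38.7 CPM (36.6 and 75.1) and 60.6 CPM (44.8 and 74.9). It was highest in uninjured tdTomato+ cells, and the plates of the other groups overlapped. Its share of thinned cells went the other way in tdTomato+ cells, from 16.5% (10.5 to 24.2) uninjured to 37% (27.6 to 47.2) at 3 days.

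The MFAPs differed from each other. Mfap4, a fibrinogen-related protein that binds elastin and fibrillin, was at 162 CPM in uninjured tdTomato+ cells (153.3 and 168 by plate), 48.9 CPM in uninjured tdTomato- cells (36.01 and 54.96), 41.2 CPM in 3d_SCI tdTomato+ cells (40.5 and 53.1) and 54.5 CPM in 3d_SCI tdTomato- cells (28.7 and 77.9). The uninjured tdTomato+ plates stood alone and the others overlapped. One cell held 74.2% of the counts of uninjured tdTomato- cells, which came to 12.7 CPM without it. Mfap5, a small fibrillin-binding glycoprotein, was at 155.3 CPM (156.2 and 154.6), 131.995 CPM (177 and 110.9), 167 CPM (165 and 197) and 310 CPM (361 and 263). Only the 3d_SCI tdTomato- plates lay above all the others.

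The last members, Ltbp2 and Emilin1, had their highest levels at 3 days in both sorts. Ltbp2, which binds fibrillin but, unlike its relatives, no latent TGF-beta, was at 5.70 CPM in uninjured tdTomato+ cells (12.8 and 0.582 by plate) and 0.372 CPM in uninjured tdTomato- cells (1.16 and 0). At 3 days it was at 130 CPM in tdTomato+ cells (128.1 and 164) and 21.6 CPM in tdTomato- cells (26.6 and 16.96). The injured plates lay above all the uninjured ones in both sorts. The uninjured tdTomato- value was 10 counts, 80% of them from 1 cell. Ltbp2 was in 3 of these cells before thinning and in 0 of 92 after it, which allows a share of up to 3.26% of cells with a count at that depth. In uninjured tdTomato+ cells 1 cell held 68.04% of the counts, and the level was 1.84 CPM without it. Emilin1, which sits between elastin and microfibrils and restrains TGF-beta processing, was at 90.8 CPM (68.8 and 107), 108.2 CPM (125.7 and 99.9), 473 CPM (468 and 561) and 440 CPM (441 and 440) in the 4 groups. It was found in 37% and 40.2% of thinned uninjured cells and in 94% and 90.2% of those at 3 days, with little between the sorts.

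**Figure D1:**
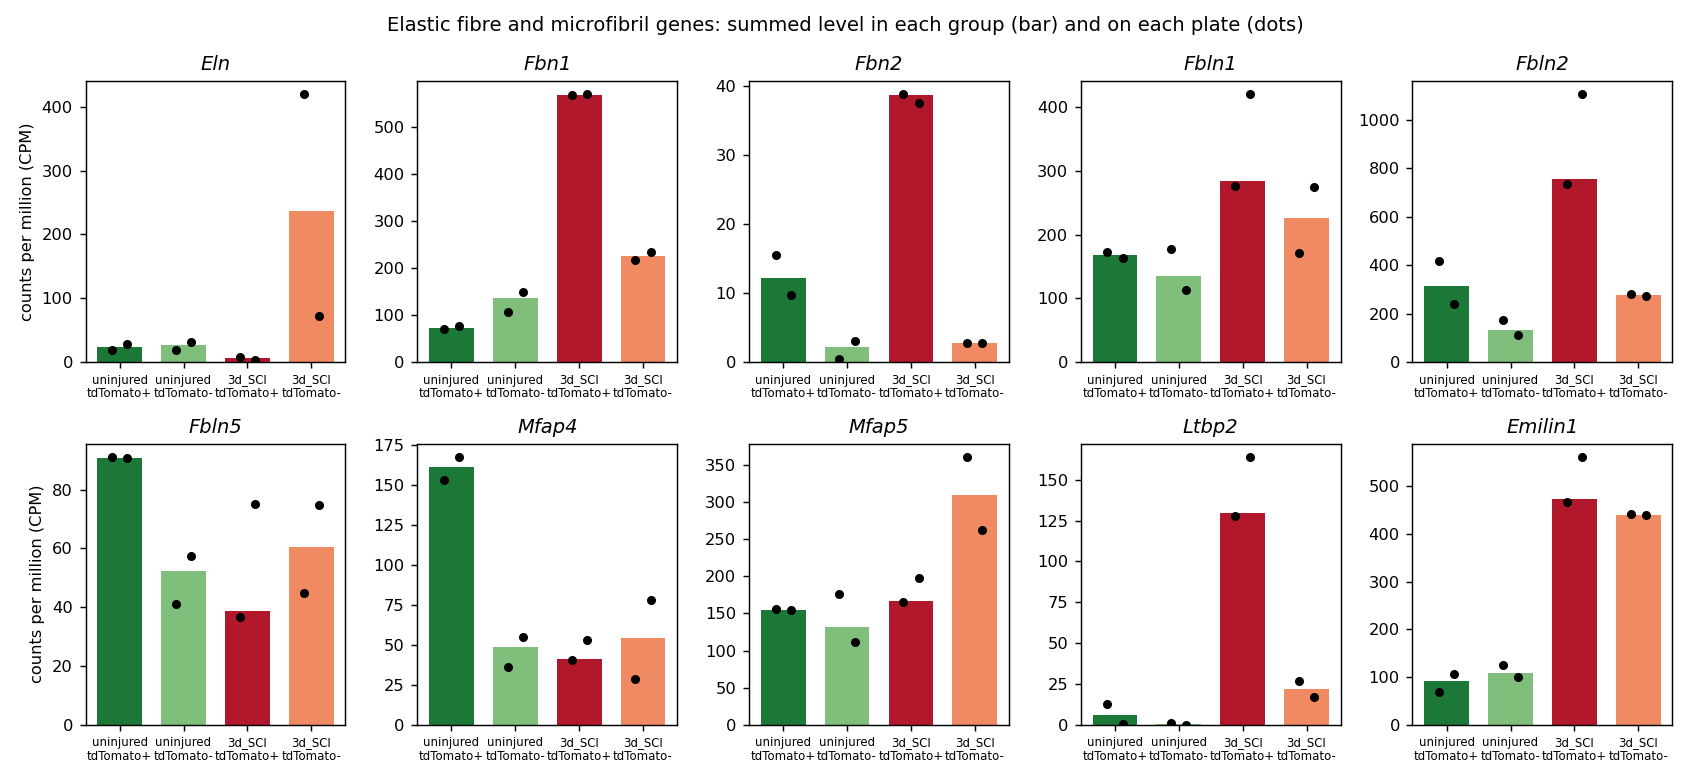
Level of each gene in CPM in the 4 groups, from counts summed over cells, with the values of the 2 plates of each group. Eln ranges from 6.84 CPM in 3d_SCI tdTomato+ cells to 237 CPM in 3d_SCI tdTomato- cells, while Emilin1 lies at 473 and 440 CPM in the same groups.

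The first comparison asks how tdTomato+ cells differ from tdTomato- cells in the uninjured cord, on the log2(CPM + 1) scale. Fbn2, Fbln2, Mfap4 and Ltbp2 were higher by the called size of 1 or more, which is 4 of the 10 genes, where 4.07% of all genes tested were. None was lower by that size (3.22% of all genes, 2.5% in the same direction on both plates). The differences were 2.07 for Fbn2 (1.44 and 3.61 by plate), 1.25 for Fbln2 (1.11 and 1.25), 1.71 for Mfap4 (1.59 and 2.06) and 2.29 for Ltbp2 (0.66 and 2.68). All 4 kept their direction on both plates, as 3.55% of all genes did at this size. With 10 CPM added Fbn2 was at 0.87 and Ltbp2 at 0.60, and only Fbln2 and Mfap4 stayed past 1. Ltbp2 depended on plate 209, being 0.66 without it, and rested on the added 1 CPM on plate 213, where tdTomato- cells had no count. Fbn1 was lower by 0.89 (-0.98 and -0.61), a value that became 0.61 without the top cell of each group. The median of the 10 was 0.55 (0.55 to 0.59 by plate) with 7 higher and 3 lower, beside 0.01 over all genes tested.

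The same comparison at 3 days had 6 of the 10 genes higher and 4 lower. Eln was lower by 4.92 in tdTomato+ cells (-5.71 and -3.99), the only member below -1, where 21% of all genes tested were (18.4% with the same direction on both plates). Fbn1, Fbn2, Fbln2 and Ltbp2 were higher by 1 or more, where 4.12% of all genes were (3.58% on both plates), at 1.33 (1.28 and 1.38), 3.41 (3.36 and 3.42), 1.45 (1.39 and 2.03) and 2.54 (2.22 and 3.20). These 5 differences kept their direction and their size of 1 or more in each of the 13 alternatives that gave a value. Mfap5 at -0.89 (-1.12 and -0.41), Fbln5 at -0.63 (-0.29 and 0.004) and Mfap4 at -0.39 (-0.54 and 0.48) were lower by less than 1. Fbln5 and Mfap4 had that sign on only 1 of the 2 plates, so their direction was not settled. Mfap5, Fbln5 and Mfap4 kept the sign in 13, 12 and 11 of the 13 alternatives. Fbn1 had opposite signs in the 2 states, with the uninjured sign resting on 1 cell. The median of the 10 was 0.22 (0.48 to 0.59 by plate) and that of all genes -0.34. The sums weigh the plates unequally. Plate 211 gave 29456220 of the 31133429 counts of tdTomato+ cells and 12201222 of the 25645409 counts of tdTomato- cells. A summed difference between the sorts at 3 days thus also holds a difference between plates, which the values within plates do not. Fbln1, for example, was at 0.33 in the sums and at 0.61 and 0.69 by plate.

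In tdTomato+ cells, 3d_SCI minus uninjured, 5 of the 10 were higher by 1 or more, where 11.6% of all genes tested were, and 3 were lower, where 35.6% were. The higher ones were Ltbp2 (4.29, with 3.22 to 6.70 over the 4 plate pairs), Fbn1 (2.94, 2.90 to 3.01), Emilin1 (2.37, 2.12 to 3.01), Fbn2 (1.60, 1.23 to 1.89) and Fbln2 (1.26, 0.81 to 2.20). The lower ones were Mfap4 (-1.95, -2.02 to -1.51), Eln (-1.67, -2.67 to -1.25) and Fbln5 (-1.21, -1.29 to -0.27). The 8 had the same sign in all 4 plate pairs, as 10.2% of all genes tested did when higher and 33.1% when lower. The direction of all 8 was the same under the other scalings, which moved the median of all genes by 0.66 and 0.79. With TMM and DESeq2 scaling the lower values were nearer to 0, Fbln5 at -0.55 and -0.41, Eln at -1.05 and -0.92 and Mfap4 at -1.28 and -1.14, while Fbln1 passed 1, at 1.44 and 1.57. Without the top cell of each group Eln was at -1.06 and Fbln5 at -0.996, the latter short of the called size. Without plate 211 Fbln5 was at -0.27, and without plate 213 Fbln2 was at 0.85. The median of the 10 was 1.01 (0.74 to 1.60), where all genes had -0.56.

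In tdTomato- cells the sums of all 10 were higher at 3 days, 5 of them by 1 or more, where 10.5% of all genes tested were, and none was lower by that size (16% of all genes, 14.9% in all plate pairs). Ltbp2 was higher by 4.04 (3.06 to 4.79), Eln by 3.09 (1.19 to 4.44), Emilin1 by 2.02 (1.80 to 2.13), Mfap5 by 1.22 (0.57 to 1.69) and Fbln2 by 1.06 (0.63 to 1.33). Those 5 were higher in all 4 plate pairs, as 8.93% of all genes were, while Fbn2 and Mfap4 were higher in 2 of 4. Fbln5 and Mfap4 were higher in 11 and 9 of 13 alternatives. With TMM scaling 7 genes reached 1, with Fbn1 at 1.01 and Fbln1 at 1.03. Without the top cell of each group 8 did, with Fbn1 at 2.36, Fbn2 at 1.27 and Mfap4 at 1.40. Without plate 211, Eln was higher by 1.38 and Mfap5 by 0.99. Without plate 213, Mfap5 was at 0.81 and Fbln2 at 0.65. The median of the 10 was 0.90 (0.96 to 1.21 by plate pair), where all genes had -0.17.

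The injury differences of the 2 sorts were set against each other. For Eln the difference between them was -4.76 (-5.69 to -3.85 over the plate pairs), for Mfap4 -2.10 (-2.60 to -1.11), for Fbln5 -1.42 (-1.42 to -0.65) and for Mfap5 -1.12 (-1.60 to -0.24). These 4 were at or below -1, where 24.8% of all genes tested were (20.2% in all plate pairs). For Fbn1 it was 2.22 (1.89 to 2.36) and for Fbn2 1.34 (-0.25 to 1.99), where 5.22% of all genes were at 1 or more (3.84% in all plate pairs), and for Fbn2 only 2 of the 4 plate pairs had that sign. The Eln and Mfap4 values stayed at or below -1 in each of 13 alternatives. That of Fbn1 was 0.76 without the top cell of each group, and that of Fbn2 was 0.66 after thinning and -0.20 without plate 213. For Mfap5 it was -0.73 with TMM and -0.55 with DESeq2 scaling, -0.65 without plate 211 and -0.71 without plate 213. For Fbln5 it was -0.86 with DESeq2 scaling, -0.88 without cell filters and -0.79 without plate 211. The other 4 genes were between 0.02 and 0.35. Of these, Ltbp2 at 0.25 was not settled, with -0.46 to 2.54 over the plate pairs. Over the 13 alternatives it ran from -1.03 to 1.88, with 9 of the same sign and 3 at the called size.

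**Figure D2:**
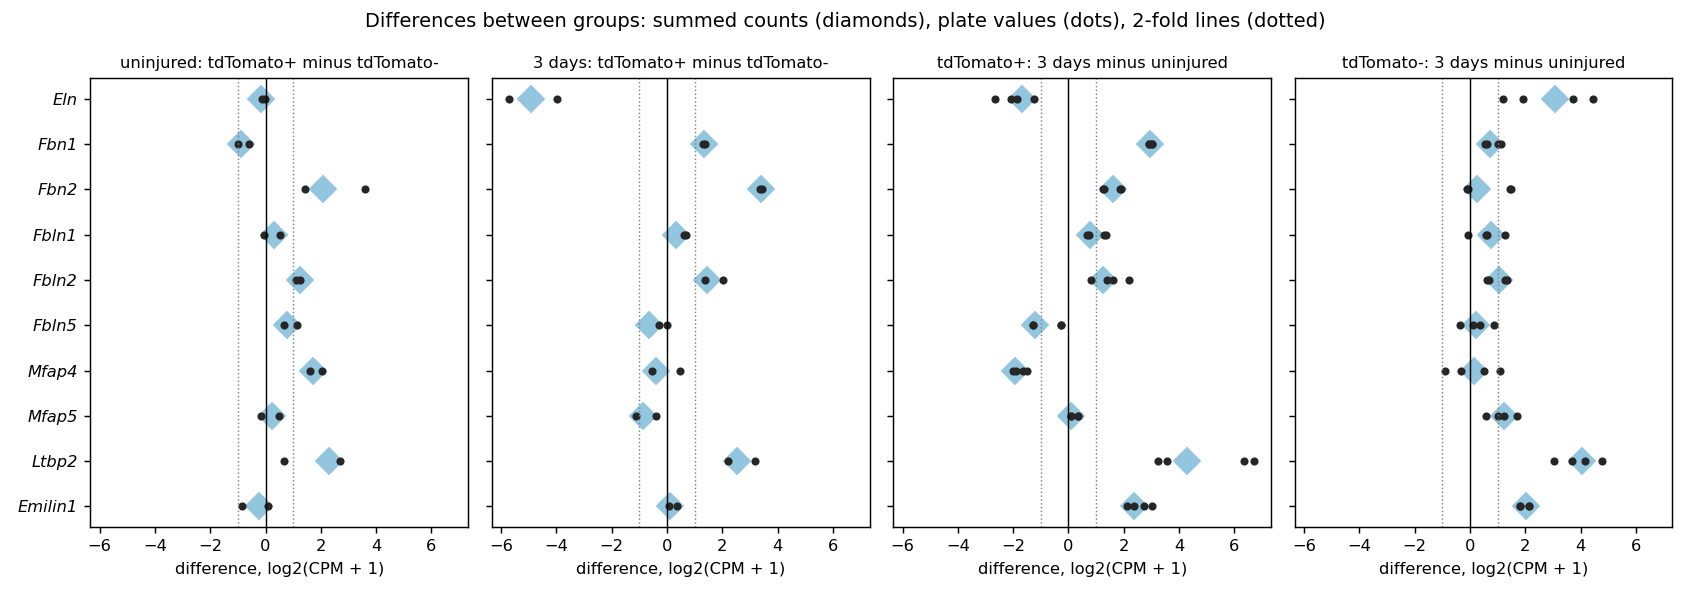
Differences between groups for each gene on the log2(CPM + 1) scale, with summed counts as diamonds, plate values as dots and dotted lines at a 2-fold difference. Eln lies at -1.67 in tdTomato+ cells and at 3.09 in tdTomato- cells after injury, with the plate dots on one side of 0 in each.

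Which cells carried these counts was read from 6 clusters, made without the 10 genes and the 29 related genes listed for the pathway. Cluster 4, 72 cells with all 8 perivascular fibroblast markers raised, was called perivascular fibroblast-like, and cluster 6, 18 cells with 5 of 6 markers raised, vSMC-like. Cluster 4 also had 3 of 7 stromal fibroblast markers raised and cluster 6 had 1 of 9 pericyte markers. In the other 4, over 50% of the markers of more than 1 list were raised with no list clearly ahead, and they stayed unnamed. Cluster 1 held 81.1% of 3d_SCI tdTomato+ cells, with 6 of 8 perivascular fibroblast, 4 of 7 stromal fibroblast and 6 of 6 cycling markers raised. Clusters 2 and 3 were mostly uninjured, with 8 of 9 pericyte markers and 5 and 4 of 5 endothelial markers raised, and cluster 5 held 45.6% of 3d_SCI tdTomato- cells, with 7 of 9 pericyte and 4 of 7 stromal markers raised.

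The perivascular fibroblast-like cells were 26 uninjured tdTomato+ cells (18.98% of them, 12.8 to 26.6), 8 uninjured tdTomato- cells (7.55%, 3.31 to 14.3) and 19 cells of each injured group. From the former came 99.8% of the Mfap5 counts of their group, 98.6% of Ltbp2, 97.8% of Fbln5, 96.9% of Mfap4, 96.5% of Fbln2, 95.9% of Fbn1, 92.3% of Fbn2, 78.4% of Eln, 61.4% of Fbln1 and 48.9% of Emilin1. A single cell each held 68.04% of the Ltbp2, 50.3% of the Fbn2 and 47.7% of the Eln counts of the uninjured tdTomato+ group. In the uninjured tdTomato- cells, 50.1% of Eln counts came from 14 vSMC-like cells, at 112.3 CPM, and 35.2% from the 8 perivascular fibroblast-like cells. In the same vSMC-like cells Fbn1, Fbn2, Fbln1, Fbln5 and Ltbp2 had no count. Smooth muscle cells are a textbook source of arterial elastin. Emilin1 was spread most widely, at 86.2, 99.2, 319, 443 and 249 CPM in clusters 2 to 6.

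At 3 days most counts of 9 of the 10 genes in tdTomato+ cells came from cluster 1, which held 81.1% of those cells. Its 99 cells of that group held 87.6% of the Fbn1 counts, 87.4% of Fbn2, 88.1% of Ltbp2, 82.8% of Fbln2 and 78.3% of Emilin1, at 599, 40.6, 137.8, 752 and 445 CPM. The whole group was close to this, at 568, 38.7, 130, 755 and 473 CPM, so these shares mostly follow the size of the cluster. For Mfap4 the 99 cells held 41.2%, at 20.4 CPM, and 58.8% came from 19 cells of cluster 4, at 156.9 CPM. In the 99 cells Eln was at 5.49 CPM (4.62 to 6.47), with 66.7% of the Eln counts of the group. In 3d_SCI tdTomato- cells, 94.3% of Eln counts came from 19 perivascular fibroblast-like cells, at 1141 CPM (1112 to 1171), 0.0493% from 47 cells of cluster 5 and 4.87% from 17 cells of cluster 1. The 19 tdTomato+ cells in cluster 4 at 3 days had 14.6 CPM of Eln (11.4 to 18.4). Of the 10 cells with the most Eln counts in the series, 7 were injured tdTomato- cells, 9 were in cluster 4 and none had a count of Myh11, which marks smooth muscle.

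**Figure D3:**
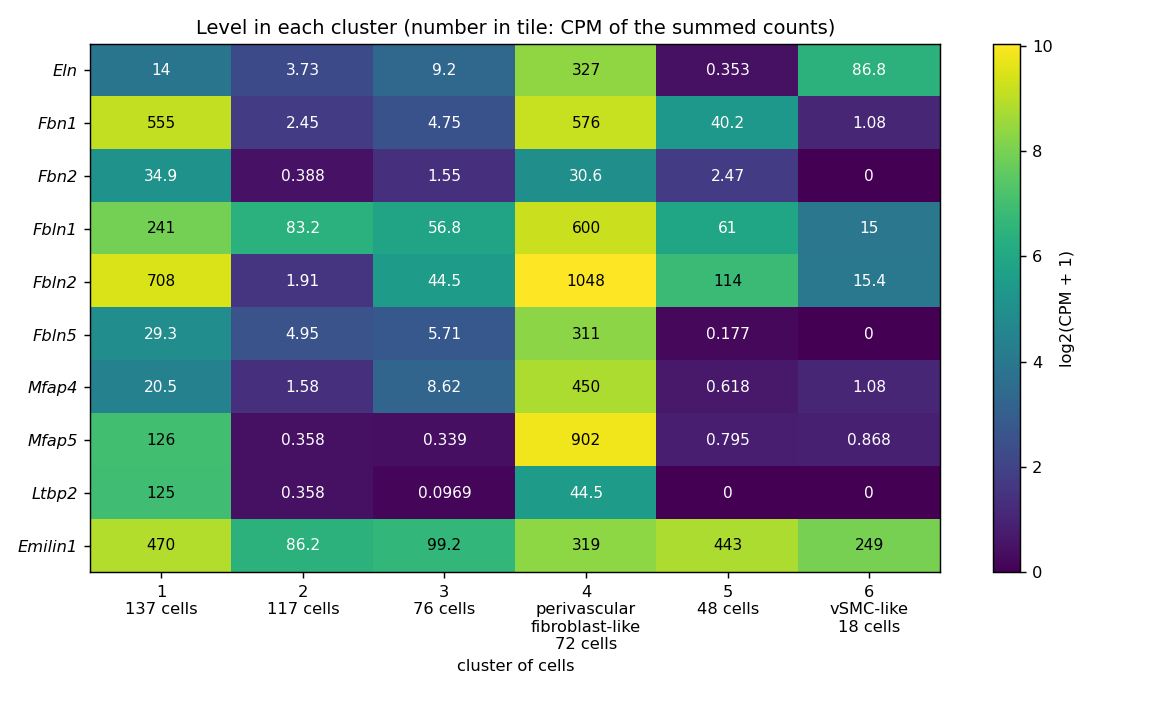
Heat map of each gene (rows) in the 6 clusters (columns), with colour for log2(CPM + 1) and the CPM of the counts summed over all cells of the cluster in each tile. Fbn1 lies at 555 and 576 CPM in clusters 1 and 4, where Eln lies at 14.01 and 327 CPM, and Emilin1 is at 86.2 CPM or more in every cluster.

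Within the tdTomato+ perivascular fibroblast-like cells, Fbln5, Eln and Mfap4 were lower after injury, as in the whole tdTomato+ groups. The 19 tdTomato+ cells at 3 days against the 26 uninjured ones had Fbln5 at 67.6 against 386 CPM, Eln at 14.6 against 81.6, Mfap4 at 156.9 against 682 and Mfap5 at 329 against 674. One cell held 60.8% of the Eln counts of the 26 cells and 1 cell 62.9% of those of the 19, and the median cell was at 0 in both. As log2 differences these were -2.50 (-3.01 to -2.26 over plate pairs), -2.41 (-4.27 to -2.11), -2.11 (-2.46 to -1.10) and -1.03 (-1.40 to -0.76), 4 of the 10 genes at or below -1, where 29.7% of 10059 genes tested in these cells were. With TMM scaling they were -2.09, -2.01, -1.70 and -0.62. Ltbp2 at 1.99 (-1.10 to 5.12) and Emilin1 at 1.76 (1.24 to 3.01) were higher by 1 or more, as were 10.4% of all genes. Fbn2 at -0.60 (-3.38 to 0.08) and Fbln2 at -0.66 (-1.45 to 0.17) had the opposite sign from the whole groups, with plate pairs on both sides of 0. The median of the 10 was -0.63 and that of all genes -0.48.

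Between the sorts at 3 days, both with 19 perivascular fibroblast-like cells, Eln was lower in tdTomato+ cells by 6.20 (-7.02 and -6.21 by plate), Mfap5 by 2.20 (-2.53 and -1.79) and Fbln5 by 2.10 (-2.45 and -1.78), where 20.6% of all genes were at or below -1. Emilin1 was higher by 1.16 (0.58 and 2.74) and Ltbp2 by 1.15 (0.00 and 0.81), where 10.1% of all genes were at 1 or more, as was Fbn2, which had 1 count in the tdTomato- cells (0.199 CPM, interval 0.00504 to 1.11) and 31.6 CPM in the tdTomato+ cells. Eln, Mfap5 and Fbln5 were thus lower and Fbn2 higher in tdTomato+ cells of the same cluster, on both plates. Plate 215 held only 4 of these tdTomato+ cells, with 1 Eln, 17 Fbln5 and 2 Fbn2 counts. It therefore adds little, least of all for Fbn2. In the tdTomato- cells of the cluster, Eln was at 1141 CPM at 3 days against 124.6 in 8 uninjured cells, a difference of 3.19 that ranged from 0.52 to 6.85 over plate pairs. Plates 211 and 215 had Eln at 2106 and 339 CPM in 11 and 8 cells, plates 209 and 213 had 17.2 and 236 CPM in 5 and 3 cells. One cell held 38.3% of the Eln counts of the 19, and their median was 59.4 CPM with 6 cells at 0. Of the counts of the 8 uninjured cells, 92.5% came from 1 cell. In these tdTomato- cells 7 of the 10 genes were lower at 3 days, against the higher sums of the whole groups. By 1 or more, 5 were lower and 3 higher, where 19.5% and 21.3% of all genes were, and Fbln5, at -1.04, was at -0.91 with TMM scaling. Fbn1 was at 685 CPM at 3 days against 1767 uninjured and Fbln2 at 608 against 1444. As log2 differences these were -1.37 (-2.25 to -0.07 over plate pairs) and -1.25 (-2.03 to -0.43). In the whole uninjured tdTomato- group, 1 cell each held 70.7% and 46.9% of the Fbn1 and Fbln2 counts, so the uninjured levels rest on few cells. Besides Eln, Emilin1 was higher, and so was Ltbp2, which had no count in the 8 cells. The median of the 10 was -0.74 and that of all genes -0.04.

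**Figure D4:**
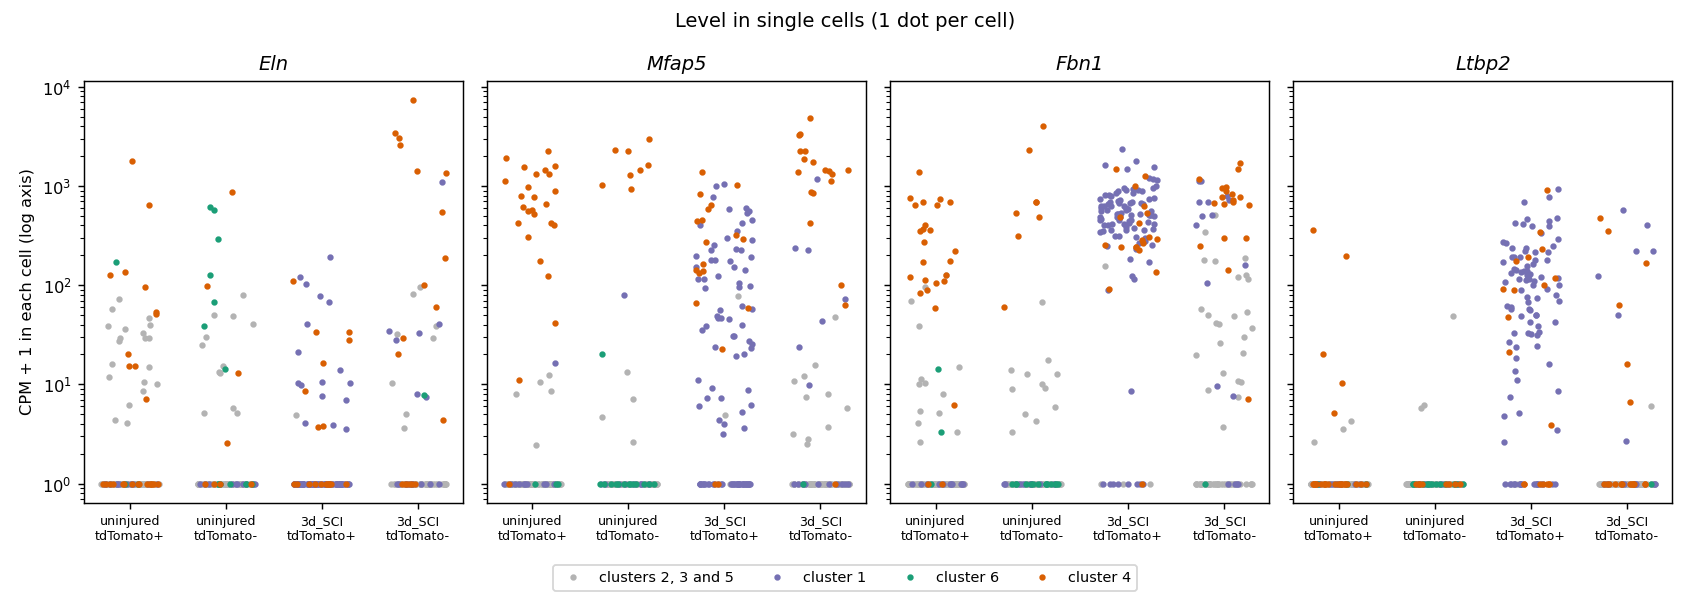
Level of Eln, Mfap5, Fbn1 and Ltbp2 in single cells as CPM + 1 on a log axis, 1 dot per cell, by group, with colours for clusters. In 3d_SCI tdTomato- cells Eln reaches 7330 CPM in 1 cell while the median cell is at 0, and Fbn1 has a median of 484 CPM in 3d_SCI tdTomato+ cells.

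How many of the 10 genes a single cell held was counted after thinning, in 421 cells with at least 20000 counts. The median cell held 1 of the 10 in both uninjured groups, 6 in 3d_SCI tdTomato+ cells and 2 in 3d_SCI tdTomato- cells. Genes of any kind per kept cell also differed before thinning, with medians of 6957 and 6730 in uninjured tdTomato+ and tdTomato- cells. At 3 days these medians were 9189.5 and 7831, and their part in the counts of the 10 was not tested. A count of 5 or more was found in 16.5% (10.5 to 24.2) and 7.61% (3.11 to 15.1) of uninjured tdTomato+ and tdTomato- cells, and in 85% (76.5 to 91.4) and 23.5% (15.7 to 32.96) at 3 days. None of the 10 was found in 23.6% and 25% of the uninjured cells, in 0 of 100 and in 1.96%, in the same order. By cluster the median was 6 in clusters 1 and 4, 2 in cluster 5 and 1 in clusters 2, 3 and 6. Thinning left out 47 shallower cells, 22 of them 3d_SCI tdTomato+ cells.

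**Figure D5:**
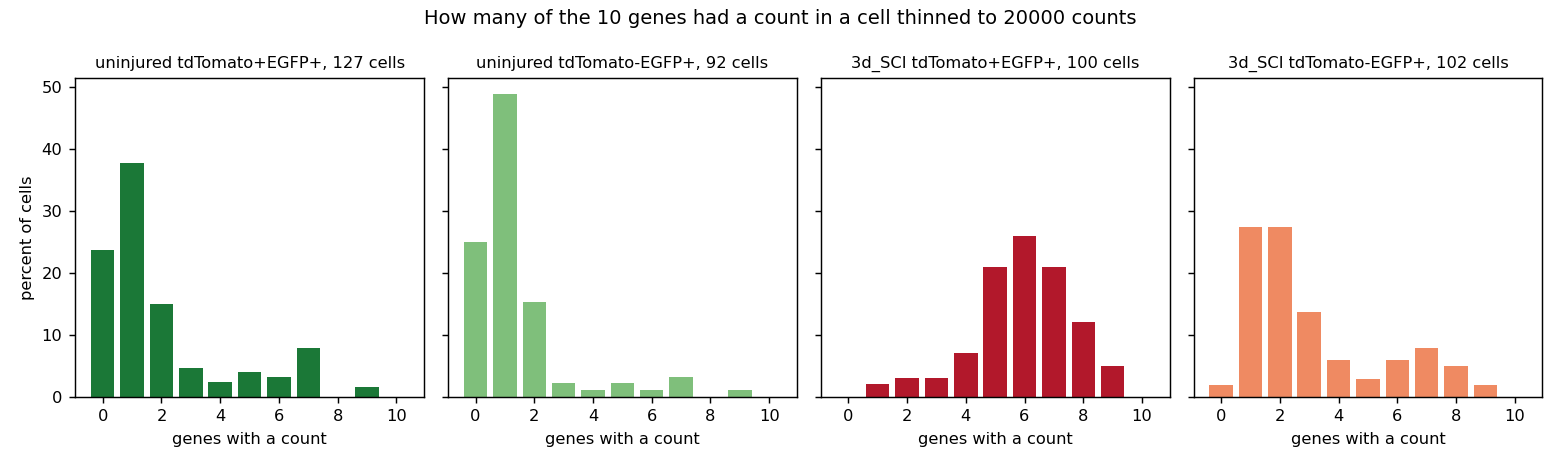
Number of the 10 genes with a count in each cell after thinning to 20000 counts, by group. The median is 6 in 3d_SCI tdTomato+ cells, 2 in 3d_SCI tdTomato- cells and 1 in both uninjured groups.

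Likeness of pattern was described by Spearman's rho over the 421 thinned cells against 10638 genes found in at least 10% of them. These cells share 4 plates, 4 groups and a common depth, and no p is given. Fbn1 was most like Col1a1 (0.84), Serpinf1 (0.81) and S100a6 (0.80), and Fbln2 was most like Serpinf1 (0.81), Col1a1 (0.81) and Pdpn (0.79). Col1a1 encodes a chain of the main fibrillar collagen of fibroblasts. Mfap5 was most like Col6a1 (0.78), Ltbp2 like Bcat1 (0.69), Fbln5 like Col6a1 (0.61), Fbln1 like Col1a1 (0.59), Mfap4 like Fbln7 (0.59) and Emilin1 like Lgals1 (0.56). Fbn2 (0.43, with Bcat1) and Eln (0.31, with Serping1) were found in 12.8% of cells each, and such values in sparse counts are no finding. Over the 45 pairs of members rho ran from -0.04 to 0.77 with a median of 0.34.

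Of 29 other genes of the pathway, 23 passed the limit on low values. Lysyl oxidases, which crosslink elastin and collagen, were higher after injury. Lox, Loxl1, Loxl2 and Loxl3, the 4 of 5 crosslinking enzymes that passed the limit, were each higher by 1 or more in both sorts. Loxl2 went from 21.9 to 615 CPM in tdTomato+ cells and from 13.6 to 303 CPM in tdTomato- cells, and Lox from 21.1 to 289 CPM and from 32.4 to 233 CPM. The 2-fold calls of the whole pathway list were 5 higher and 8 lower in tdTomato+ cells and 8 higher and 5 lower in tdTomato- cells, beside the shares of all genes given above. Ltbp4, which works with Fbln5 in elastin assembly, was at 321 and 298 CPM in the uninjured sorts and at 18.9 and 170 CPM at 3 days, a difference of -4.02 (-5.34 to -3.76) in tdTomato+ cells. Mmrn2, an endothelial EMILIN relative, was lower in both sorts, by 3.42 and 1.99, and so was the endothelial marker sum given above. The part of the endothelial markers in the Mmrn2 and Ltbp4 values was not tested. Between the sorts, Efemp1 (fibulin-3) and Vcan, a proteoglycan that binds fibrillins, were higher in tdTomato+ cells by 2.42 and 2.42 in the uninjured cord and by 1.44 and 2.13 at 3 days. A single cell each held 57.6% and 79.5% of their uninjured tdTomato- counts, and Efemp1 was at 0.52 and 2.85 by plate at 3 days. In the uninjured cord 5 of the 23 pathway genes were higher by 1 or more and 1 was lower, where 4.07% and 3.22% of all genes were. The lower one was Emilin2, at -4.21, with 74.7% of its tdTomato- counts in 1 cell. Tgfb1, Tgfb2 and Tgfb3, the latent cargo of microfibrils, were all lower in tdTomato+ cells at 3 days by 1 or more in summed counts. Tgfb1 was at 9.19 against 33.1 CPM. The plate values of Tgfb2 (-1.11 to -0.80) and Tgfb3 (-1.25 to -0.69) did not all reach -1. Of the 23 pathway genes, 7 were lower and 4 higher by 1 or more between the sorts at 3 days, where 21% and 4.12% of all genes were.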

How the data were processed

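Single EGFP+ cells of mouse spinal cord were sorted into 384-well plates, and Smart-seq3 libraries were made by the authors. The deposited table holds whole-number counts per gene symbol and cell, made by the authors against mm10 per the labels. The aligner, the annotation and whether the counts are reads or molecules are not given in the sources used here. Of 1968 columns, 1465 match no sample here and were not used. The 92 spike-in rows (0.0314% of counts) were left out. The labels give 3 days for the injured cells while the study's text also names 5 days.

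Kept cells had at least 200 genes, under 20% mitochondrial counts and no Gfap or Ptprc signal above 1 on the log-normalised scale. Cells with Pecam1 both above 1 and above Pdgfrb were left out, so kept cells can hold Pecam1. The study's upper limit of 1200 genes would leave 33 cells and was used as an alternative only. Counts were summed per group and per plate, scaled to CPM and compared as log2(CPM + 1), with 1 or more as the called size. Shares of cells were taken after thinning to 20000 counts. Clusters came from Seurat 5.3.0 (2000 variable genes, 20 principal components, resolution 0.5) without the genes described. No doublet caller was run. The difference script was tested on simulated data. Alternative scalings used edgeR 4.0.16 (TMM) and DESeq2 1.42.0 (size factors), and Python 3.11.15 did the rest. The 10 genes, the pathway and marker lists and the comparisons were chosen with earlier results of these data known. Named related genes are those called in a comparison. Plate numbers come from the sample titles, and which animals each plate held is not given in the sources used here.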

Additional observations from a re-analysis of the deposited data

Results flagged for a closer look

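Eln was flagged because its injury difference had opposite signs in the sorts, at -1.67 in tdTomato+EGFP+ cells and 3.09 in tdTomato-EGFP+ cells on the log2 scale, in all 4 plate pairs of each. Fbn1 was flagged because tdTomato+EGFP+ minus tdTomato-EGFP+ was -0.89 in uninjured cord and 1.33 at 3 days, with both plates of each state on one side. The uninjured Fbn1 value was 0.61 without the top cell of each group. Neither difference between differences was tested, since each group is 1 sample. Spike-in RNA, which no comparison used, made up 0.0984% of the counts of plate 211 (41040 counts, in each of its cells) and 0 counts on plates 209, 213 and 215.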

How the results depend on the processing

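The medians of the 10 genes kept their sign in every comparison under the alternatives that gave a value, except the limit of 1200 genes, which left 10, 13, 10 and 0 cells in the groups. Under it the uninjured sort median was 0 and the tdTomato+ injury median 5.30, and 2 comparisons had no value. The uninjured sort median was 0.45 with 10 CPM added, 0.66 as a mean of cells, 0.28 without cell filters and 1.08 without top cells. The 3-day sort median was 0.60 with TMM, 0.74 with DESeq2 factors, 0.34 as a mean of cells and 0.48 to 0.59 with 1 plate left out. The tdTomato+ injury median was 1.69 with TMM, 1.82 with DESeq2 factors and 1.44 without plate 211. The tdTomato- injury median was 1.19 with TMM, 1.15 with DESeq2 factors, 1.28 as a mean of cells, 1.23 after thinning, 1.15 without plate 209 and 1.79 without top cells. Why these values moved was not tested. Of the single-gene differences under alternatives, 417 moved by less than the spread of plates and the others by more. Leaving out 521 gene rows absent on plate 211 or found only there, an alternative chosen after seeing the data, moved no median beyond that spread, and none of the 10 genes was among them. The perivascular fibroblast-like cluster kept its 72 cells among 74 at resolution 0.8 and merged into 209 cells at 0.3. No paired analysis was possible because no result comes from a test. Plates 209 and 213 each held both uninjured sorts and plates 211 and 215 both injured ones, and the differences between sorts within each plate are given with the comparisons. Depth limits the genes with few counts most, such as the 10 Ltbp2 counts of uninjured tdTomato-EGFP+ cells.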

Other observations

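The 34 cells removed for Pecam1 above Pdgfrb, of which 21, 11, 0 and 2 came from uninjured tdTomato+EGFP+, uninjured tdTomato-EGFP+, 3d_SCI tdTomato+EGFP+ and 3d_SCI tdTomato-EGFP+ cells, give levels of the 10 genes outside every comparison. Emilin1 was at 47.1 CPM (95% Poisson interval 42.6 to 51.9) in them, found in 32.4% of cells, beside 97.97 CPM in the kept uninjured cells. Fbln5 was at 73.1 CPM, with 96.9% of its counts in 1 cell, and Fbn1 was at 6.68 CPM beside 98.9 CPM in the kept uninjured cells. Of the related genes, Ltbp4 was at 479 CPM and Mmrn2 at 263 CPM, beside 311 and 133.98 CPM in the kept uninjured cells.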
